A study of Mus musculus with 70 samples.

Results

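Untreated mouse embryonic fibroblasts (MEFs) were compared with untreated epithelial cells sorted from liver and colon, to describe what sets a cultured fibroblast apart from both epithelia. The 24 libraries without doxycycline were taken from the 70 of the series. They are 6 MEF libraries (caMEK1 and caMKK6, 3 each), 9 of GFP-positive liver cells and 9 of GFP-positive colon cells, the latter in 3 libraries each of Control, caMEK1 and caMKK6 mice. Genes counted where the difference had the same sign against liver alone and against colon alone, which held for 8214 of the 12368 genes tested. Both lines carry a kinase that doxycycline switches on, caMEK1 for the ERK branch and caMKK6 for the p38 branch, and no group used here received doxycycline. The labels give all samples as male and C57BL/6, and the mice as chimeras of cells in both colours.

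The MEFs came from embryos harvested at E13.5 with the head and viscera removed. They grew in medium with serum on culture plates, were passaged every few days, and carry the time label day 2. The labels name no control MEF line and do not say whether the replicates were separate cultures, so p-values measure the spread between these samples, which may be technical. The epithelial cells came from perfused liver spun to enrich hepatocytes, or from colon crypts dissociated with trypsin. Both were sorted live straight into an RNA preservative, and the ages of the mice are not given in the labels. Cell type, embryonic age, culture, sorting and RNA input (100 ng for MEFs, 50 ng for sorted cells) differ together and cannot be told apart. In bulk RNA, fewer cells of a type and less RNA per cell cannot be told apart either.

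Fibroblasts are the cells that build connective tissue. They secrete fibrillar collagens, crosslink them with lysyl oxidases, hold the matrix through integrins and pull on it with actin stress fibres. On stiff plastic this contractile programme is driven by serum response factor (SRF), which binds the CArG box, and by YAP with its TEAD partners, which bind GGAATG. Epithelial cells are joined by E-cadherin, claudins and desmosomes, rest on simple keratins, and in liver and gut share HNF4A and other endodermal transcription factors. ZEB and SNAI factors, which mark mesenchymal cells, bind E-boxes of the form CACCTG and are known repressors of junction genes.

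Promoter stretches of 5 genes are printed first because they show the motifs named above in genes that were higher and genes that were lower in MEFs. Acta2, Myl9 and Ankrd1, which encode smooth muscle actin, a myosin light chain and a stretch-responsive cofactor, were higher in MEFs by 4-fold or more. Gjb1 and F11r, which encode a connexin and the junctional adhesion molecule A, were lower in them, F11r by less than 4-fold against liver. Each stretch holds the 250 bases before the RefSeq start on GRCm38.p6, written 5′ to 3′ on the gene's strand. Capitals mark exact matches, on either strand, to the CArG box in Acta2 and Myl9, to GGAATG in Ankrd1, and to CACCTG in Gjb1 and F11r.
Acta2, chr19:34255374-34255623, minus strand: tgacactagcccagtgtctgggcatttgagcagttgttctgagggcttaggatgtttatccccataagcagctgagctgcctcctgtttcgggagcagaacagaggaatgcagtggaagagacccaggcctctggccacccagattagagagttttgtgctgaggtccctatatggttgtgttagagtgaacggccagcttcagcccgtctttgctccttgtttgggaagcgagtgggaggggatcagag
Myl9, chr2:156775214-156775463, plus strand: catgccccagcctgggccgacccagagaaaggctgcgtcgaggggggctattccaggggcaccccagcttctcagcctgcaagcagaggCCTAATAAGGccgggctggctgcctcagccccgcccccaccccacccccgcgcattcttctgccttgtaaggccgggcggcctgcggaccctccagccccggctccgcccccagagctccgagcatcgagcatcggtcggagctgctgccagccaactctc
Ankrd1, chr19:36119845-36120094, minus strand: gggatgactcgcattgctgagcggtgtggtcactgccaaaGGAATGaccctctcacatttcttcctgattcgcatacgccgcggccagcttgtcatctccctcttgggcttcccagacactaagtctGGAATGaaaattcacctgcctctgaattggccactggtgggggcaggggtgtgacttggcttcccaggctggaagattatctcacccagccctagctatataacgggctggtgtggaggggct
Gjb1, chrX:101383482-101383731, plus strand (1 of its 4 starts): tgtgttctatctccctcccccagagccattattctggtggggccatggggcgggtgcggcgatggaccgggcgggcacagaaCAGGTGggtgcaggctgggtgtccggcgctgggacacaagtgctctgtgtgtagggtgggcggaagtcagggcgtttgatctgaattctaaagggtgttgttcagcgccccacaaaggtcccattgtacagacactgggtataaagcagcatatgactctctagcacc
F11r, chr1:171437311-171437560, plus strand: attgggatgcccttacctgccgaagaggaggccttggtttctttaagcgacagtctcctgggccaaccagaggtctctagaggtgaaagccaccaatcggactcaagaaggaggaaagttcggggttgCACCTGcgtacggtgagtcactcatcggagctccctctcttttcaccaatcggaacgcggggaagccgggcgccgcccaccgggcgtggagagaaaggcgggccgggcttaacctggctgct

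The Acta2 stretch held no exact CArG box, but it held ccctatatgg and ccttgtttgg, each 1 base off an exact match. The Myl9 stretch held 1 exact CArG box, beginning 161 bases before the start, and also ccttgtaagg, 1 base off. Such near matches were not counted over other windows, so no share stands beside them. Ankrd1 held GGAATG at 210 and 123 bases before its start, Gjb1 held CACCTG at 168 and F11r at 122. The Gjb1 stretch was chosen for its match: of 4 starts, only this 1 held CACCTG in the 250 bases before it. Some stretches also held a motif asked of another list, left in lower case: GGAATG in Acta2, CACCTG in Ankrd1 and the AP-1 letters TGANTCA in F11r. A match is a description of letters, not a bound site. Over whole windows of 300 bases (250 before to 50 after a start), CACCTG stood in 20.2% of all 32851 windows and in 18.2% of the 12600 windows of genes tested. It stood in 12.9% of the 914 windows of genes at least 4-fold higher in MEFs than in each tissue, and in 26.6% of the 353 windows of genes at least 4-fold lower. For GGAATG those shares were 12.5% of tested windows, 17.5% of the higher and 15.9% of the lower, and for the CArG box 1.35%, 2.3% and 1.7%. TGANTCA stood in 5.44%, 7.77% and 7.93%. Windows were found for 699 of the 906 higher genes and 265 of the 351 lower genes.

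Read depth, recovered from the steps of the FPKM values (fragments scaled to transcript length and library size), was 11260970 to 16723719 reads in MEFs, with 9267318 to 13579820 in liver and 6671204 to 17396973 in colon. A library held 8641 to 10790 genes at 1 FPKM or more. The fluorescent reporter EGFP lay between 50.4 and 750 FPKM in the 18 sorted libraries and at 0.0984 or lower in MEFs. The transgene sequences did not follow the labels in all libraries. The frog MEK1 sequence was listed at 1.94, 3.22 and 4.04 FPKM in the caMEK1 MEFs, and at 0, 11 and 16 in the libraries labelled caMKK6. Human MKK6 was listed at 1.15, 3.17 and 0.407 FPKM in the libraries labelled caMKK6 and at 0 in the caMEK1 MEFs. Among sorted libraries frog MEK1 was listed at 0, but human MKK6 reached 1.37 FPKM in colon caMEK1 replicate 3. In sorted caMKK6 libraries human MKK6 was at most 0.281 FPKM. Because of the frog MEK1 sequence, some counts and single genes are also given without the MEF libraries labelled caMKK6 replicate 2 and replicate 3. A few are given from the caMEK1 MEFs alone. Counts over gene lists use all MEF libraries.

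Libraries of 1 tissue resembled each other far more than libraries of different tissues. Pearson's r across genes was 0.987 to 0.997 among MEFs, with medians of 0.288 between MEFs and liver and 0.45 between MEFs and colon. Liver and colon correlated with each other at a median of 0.384. These r values are across genes, which are not independent replicates. In a principal component analysis the first component (61.6% of the variance) set liver apart and the second (35.6%) set MEFs apart from colon.

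Most genes differed, and 8133 of those tested (65.8%) were called. With limma on log2(FPKM + 1) and a Benjamini-Hochberg adjusted p under 0.05 plus the same sign against each tissue, 5453 genes (44.1% of those tested) were higher in MEFs and 2680 (21.7%) were lower. A call also reaches genes that only 1 epithelium uses, so most counts below also ask for a log2 difference of 2 or more (4-fold) against each tissue alone. That left 1257 genes (10.2%), 906 higher (7.33%) and 351 lower (2.84%). These shares over all genes tested are the background for each list count below. From the caMEK1 MEFs alone, 929 genes were higher and 337 lower by this rule. Without the libraries labelled caMKK6 replicates 2 and 3, the counts were 906 and 349. A call against each tissue alone was met by 4745 genes higher (38.4%) and 1928 lower (15.6%), and no overlap between the 6 MEF and 18 epithelial libraries by 3753 above (30.3%) and 1467 below (11.9%). Against liver alone 66.9% of genes were higher and 21.9% lower, and against colon alone 41.6% and 43.5%. The comparisons with liver and with colon share the MEF libraries.

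The split between directions depended on scale. Deposited FPKM values put the median gene 0.85 higher on the log2 scale in MEFs than in liver and 0.01 lower than in colon. In liver the 10 genes with the highest levels held 25.8 to 29.6% of the summed FPKM, in MEFs 7.44 to 8.34% and in colon 10.3 to 14.2%. Genes higher in MEFs made up 67% of the calls as deposited, 56.9% after scaling libraries to a common median and 50.1% with voom in limma on recovered reads. Among the differences of 4-fold or more the shares were 72.1%, 66.3% and 52.1%. After median scaling 5054 of the 12368 genes tested were higher and 3832 lower.

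**Figure D1:**
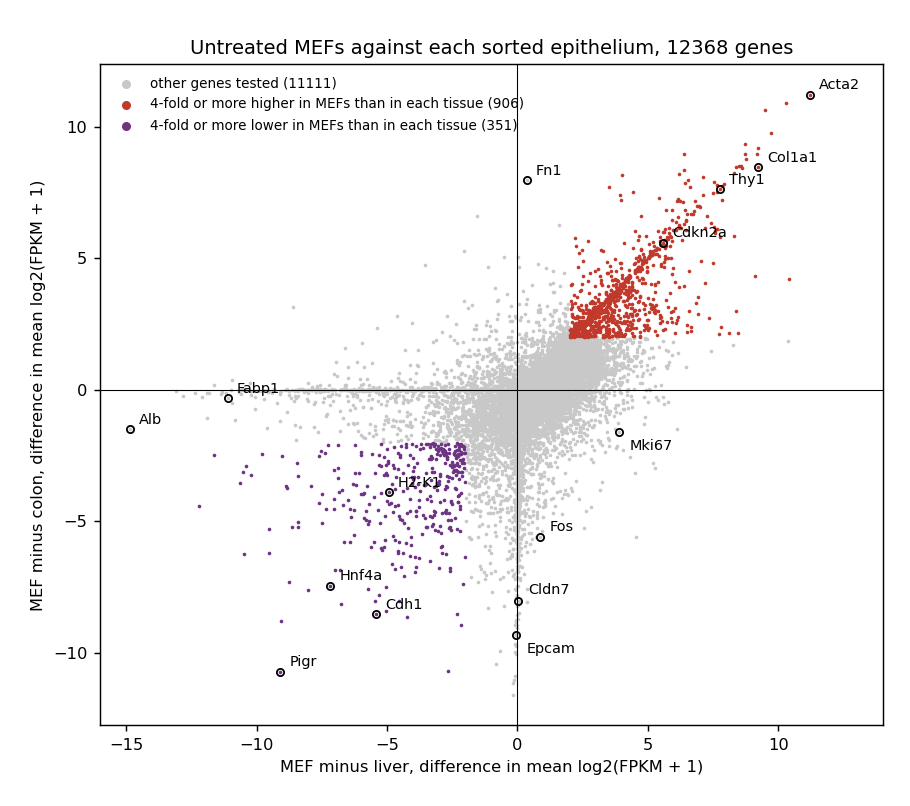
Difference in mean log2(FPKM + 1) between MEFs and liver (horizontal axis) and between MEFs and colon (vertical axis) for the 12368 genes tested, 1 point a gene, with both axes sharing the 6 MEF libraries. Red points (906) were 4-fold or more higher in MEFs than in each tissue and purple points (351) 4-fold or more lower; Fn1, Epcam, Alb and Fabp1 lie near an axis because only 1 epithelium differs strongly from MEFs.

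The 906 genes that were 4-fold or more higher made up 22.9 to 23.9% of the summed FPKM of a MEF library, 0.377 to 0.527% of a liver library and 1.21 to 1.36% of a colon library. The 351 genes in the other direction made up 0.749 to 1% in MEFs, but 15.4 to 16.6% in liver and 10.3 to 13.6% in colon. Of the 906 genes, 531 passed the filter on low values (1 FPKM in at least 6 libraries) through the MEF libraries alone, so they had to differ. The same holds for part of each fibroblast list, where that number is given beside the count of members that were higher and those members are described by their levels. In the other direction, a gene under 1 FPKM in all 6 MEF libraries passed through the epithelia alone, so the filter favoured a lower call. For most epithelial lists the number of such members is given. At the 4-fold limit, Rbm3 and Rrp8 lay just inside among the higher genes (2.002 and 2.003 against colon), and Hmgn1 and Mdfi just outside (1.998 and 1.996).

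The gene with the largest difference from both epithelia was Acta2, smooth muscle actin, the marker of contractile myofibroblasts (chromosome 19). Its level was 2183, 2530 and 2722 FPKM (lowest, median and highest of the 6 MEF libraries) and at most 0.114 FPKM in the 18 epithelial libraries. The log2 difference was 11.22 ± 0.05 (SE; limma). Acta2 passed the filter on low values through the MEF libraries alone and had to be higher, so its levels describe it. By the smaller of the differences from liver and colon, the genes that came next included Tagln, Lgals1, Lox, Vim, Crabp1, Serpinh1, Ccn2 and Fbln2. They encode a calponin-like actin binder, a galectin, a lysyl oxidase, vimentin, a retinoic acid binding protein, the collagen chaperone, a matricellular growth factor and fibulin 2. None of these 9 genes, Acta2 included, had an epithelial library above 4.49 FPKM, and the lowest MEF value among them was 294 FPKM, for Crabp1.

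Of the 9 fibrillar collagen genes tested, 7 were higher in MEFs, and all 7 were at least 4-fold higher than in each tissue. Of the 9, 6 passed the filter through the MEF libraries alone and had to be higher. The median difference over the 9 was 5.66, against 0.37 over all genes tested. Col1a1, the main chain of type I collagen, had 510, 690 and 848 FPKM in MEFs, 0.0133, 0.0776 and 0.246 in liver, and 0.275, 0.482 and 4.89 in colon. The MEF libraries were far above every epithelial library, with a log2 difference of 8.84 ± 0.18. Col1a1 was among the genes that passed the filter through the MEF libraries alone. Col1a2 (221 to 311 FPKM in MEFs), Col5a2 (144 to 239) and Col3a1 (82.2 to 117) stayed at or below 6.17 FPKM in the epithelia. The highest epithelial values of Col1a1, Col3a1 and Col1a2 were all in colon caMKK6 replicate 1. Fibrillar collagens there summed to 14.5 FPKM, against 1.11 to 4.17 in the other 8 colon libraries, and the part of stromal cells in that was not tested. Col5a3 and Col27a1 did not pass, with opposite signs against the epithelia. Col5a3 had 2.07 to 3.58 FPKM in MEFs, with 2.27 to 5.27 in liver and at most 0.132 in colon.

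Basement membrane genes were more mixed. Of 16 tested, 11 were higher, 8 of them by 4-fold or more, and 2 were lower, with a median of 2.32. The MEF libraries alone let 3 of the 16 through the filter. Nid1 (nidogen 1, 125 to 187 FPKM), Lamb1 (laminin beta 1, 50.3 to 60.4) and the type IV collagen genes Col4a1 (179 to 281) and Col4a2 (133 to 207) were high in MEFs. Liver held 6.27 to 16 FPKM of Col4a1 and colon at most 0.402. The lower genes were Lama3 and Lamb3, chains of the laminin that anchors epithelia. Col18a1, the source of endostatin, did not pass, at 3.73 to 6.69 FPKM in MEFs, with 210 to 253 in liver and at most 0.179 in colon.

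All 19 elastic fibre and matricellular genes tested were higher in MEFs, 18 of them by 4-fold or more, with a median of 5.36. The filter was passed through MEFs alone by 12 of the 19, which had to be higher. Tnc, which encodes the wound matrix protein tenascin C, had 308, 357 and 460 FPKM in MEFs and at most 0.0531 FPKM in any epithelial library. Sparc, a collagen binding glycoprotein, had 811 to 956 FPKM in MEFs, with 4.02 to 26.9 in liver and 0.123 to 2.73 in colon. Spp1 (osteopontin) was 69.5 to 469 FPKM and Postn (periostin) 29.5 to 94.3 FPKM in MEFs, with at most 6.4 and 0.919 in the epithelia. The member short of 4-fold was Fn1, fibronectin, which hepatocytes are known to secrete. Fn1 had 329, 409 and 474 FPKM in MEFs, 238, 310 and 420 in liver, and 0.371 and 0.571 (lowest and median) in colon. MEFs and liver overlapped for Fn1, with a log2 difference of 0.36 ± 0.10 from liver alone. The Fn1 call was lost after scaling to a common median and with voom.

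Small leucine-rich proteoglycans, which space collagen fibrils, were only partly expressed. Of 11 listed, 5 passed the filter, 4 of these were higher (3 by 4-fold or more) and Prelp was lower. Through MEFs alone, 2 of the 5 passed the filter. Bgn (biglycan) had 288 to 456 FPKM in MEFs and at most 8.49 FPKM in the epithelia, while Aspn (asporin) and Ogn (osteoglycin) had 15.9 to 23.3 and 8.02 to 15.4. Dcn (decorin), a usual fibroblast marker, was low: 4.35, 7.11 and 9.5 FPKM in MEFs against 0.939, 3.24 and 12.6 in liver. The Dcn groups overlapped, and against liver alone it did not pass (limma, adjusted p = 0.055). Liver exceeded the highest MEF value in Control replicate 2 (11.2 FPKM) and caMKK6 replicate 3 (12.6 FPKM). In those libraries stellate and gut stromal markers summed to 61.6 and 59.9 FPKM, against 8.4 to 27.8 in the other liver libraries. The part of such cells in the Dcn level was not tested.

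Collagen modifying enzymes and chaperones were higher for 18 of 19 tested, 15 by 4-fold or more, with a median of 3.96, and 11 of the 19 passed the filter through MEFs alone. Lox, which crosslinks collagen and elastin, had 523, 601 and 671 FPKM in MEFs and at most 0.0627 FPKM elsewhere (log2 difference 9.22 ± 0.04). Lox was among the genes that passed through MEFs alone. Serpinh1, the collagen chaperone HSP47, had 942 to 1048 FPKM, Fkbp10 117 to 140 and Loxl1 79.6 to 106. Plod1 did not pass. Among 14 matrix proteases and inhibitors 13 were higher, 12 by 4-fold or more, and 9 of the 14 passed the filter through MEFs alone. The inhibitors Timp1 and Timp2 had 254 to 550 and 278 to 387 FPKM in MEFs, against 44.3 to 91.5 for the urokinase gene Plau and 29.3 to 53.8 for the gelatinase gene Mmp2. In the epithelia Timp1 was at most 0.388 FPKM and Timp2 at most 5.66.

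Contractile and stress fibre genes were higher for 19 of 20 tested, 18 of them by 4-fold or more, with a median of 5.42. Through MEFs alone, 8 of the 20 passed the filter. Tagln (transgelin) had 1463, 2054 and 2342 FPKM in MEFs and at most 1.26 FPKM in liver and 0.173 in colon. Myl9, whose promoter stretch holds the CArG box, had 296, 402 and 447 FPKM and at most 0.59 in the epithelia. Actg2, an actin of visceral smooth muscle, had 196 to 283 FPKM and at most 0.289 elsewhere. The member that did not pass was Mylk. Within the 20, 17 genes had RefSeq windows, and exact CArG box matches stood in 3 of these 21 windows (14.3%), for Cnn2, Myl9 and Vcl. Among windows of genes tested the share was 1.35%, and no test was made. Actins are near-identical in their coding sequence, so reads may be shared between Acta2 and Actg2.

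Caveolae, the small membrane pits of mechanically loaded cells, had 6 genes tested, each at least 4-fold higher, of which 3 passed the filter through MEFs alone. Cav1 had 197 to 264 FPKM in MEFs and at most 0.508 in the epithelia, and Cavin1, Cavin2 and Ehd2 had 247 to 306, 257 to 376 and 74.4 to 105. Fibroblast integrins were higher for 8 of 10, 5 by 4-fold or more, with 4 of the 10 tested through MEFs alone. Itgb1, the shared beta 1 chain, was also present in epithelia: 643 to 803 FPKM in MEFs, with 43 to 65.7 in liver and 66.3 to 86.9 in colon. Itga5, its partner in the fibronectin receptor, had 103 to 120 FPKM in MEFs and at most 14.1 elsewhere. Itga11, the collagen-binding integrin of fibroblasts, was listed at 0 in all 9 liver libraries. Itga1 was lower in MEFs.

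Surface receptors and markers of mesenchymal cells were higher for 17 of 20 (14 after median scaling), 13 by 4-fold or more, with 9 of the 20 tested through MEFs alone. Vim, the intermediate filament vimentin, had 1035, 1082 and 1208 FPKM in MEFs and at most 1.75 FPKM in the epithelia. Thy1, the CD90 marker, had 161, 211 and 272 FPKM in MEFs, was listed at 0 in all 9 liver libraries and reached 0.322 in colon. Against the 3 reads that a library at 0 may still hold, mean Thy1 was at least 2011-fold higher in MEFs than in liver. S100a4 had 262 to 387 FPKM and Axl 219 to 297. The platelet-derived growth factor receptors were lower in level, with Pdgfrb at 20.5 to 47.1 FPKM and Pdgfra at 5.62 to 15.2, though both were above every epithelial library. The defining markers chosen for fibroblasts (Thy1, Pdgfra, Pdgfrb, Vim, Col1a1 and Dcn) were thus all present in the MEF libraries.

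**Figure D2:**
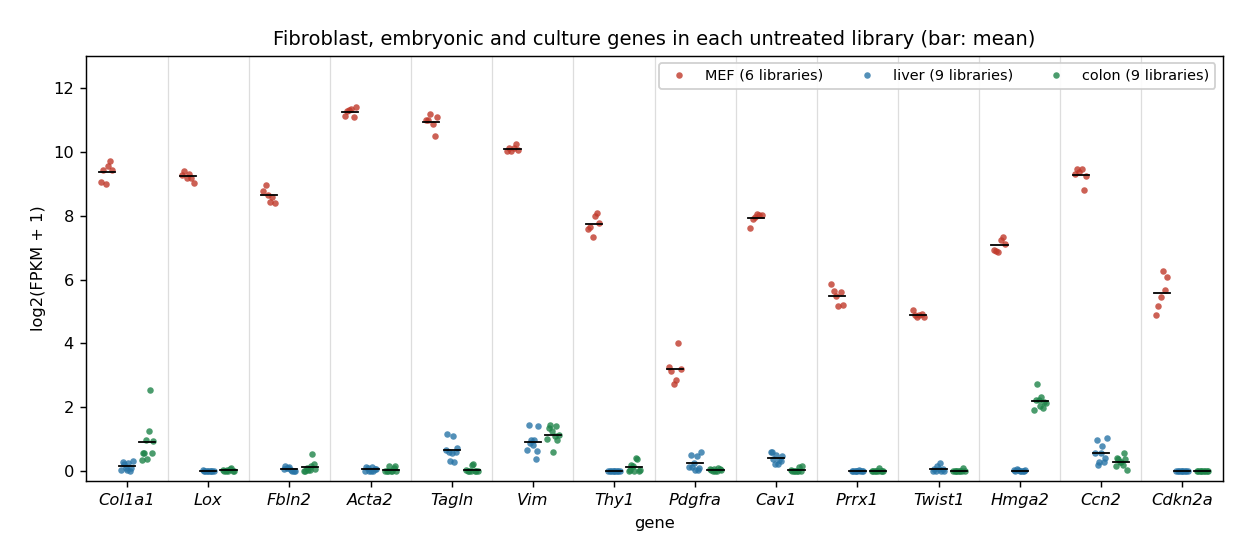
Level of 14 genes in each untreated library as log2(FPKM + 1), with 6 MEF, 9 liver and 9 colon points a gene and a bar at each mean. MEF points lie above every epithelial point for each gene shown; outside MEFs, Hmga2 in colon (2.76 to 5.6 FPKM), Vim in both epithelia and Col1a1 in colon (0.275 to 4.89 FPKM) are among the levels above 0.

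Mesenchymal transcription factors were higher for all 17 tested of 22 listed, 12 by 4-fold or more, with a median of 3.14. Of the 17, 13 passed the filter through MEFs alone and had to be higher, so their levels rather than this count describe them. Prrx1, a limb and connective tissue homeobox factor, had 35.5, 46.1 and 57.2 FPKM in MEFs and at most 0.0809 FPKM elsewhere. Twist1 had 27.2, 28.8 and 31.9 FPKM and at most 0.199, and Snai1 had 36.9 to 54.1 and at most 0.832. Twist2 was listed at 0 in all 9 colon libraries and Prrx2 in all 9 liver libraries. Liver libraries held part of the ZEB and SNAI2 signal. Zeb1 was 4.73 to 8.17 FPKM in MEFs, with 1.79 to 2.8 in liver and at most 0.073 in colon, and Snai2 was 19.3 to 29.3, 0.884 to 2.56 and at most 0.0742. Liver also carried endothelial markers (summed level 40.9 to 134 FPKM, against 1.4 to 5.99 in colon), and their part in the Zeb1 and Snai2 levels was not tested.

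Hox genes record position along the body axis in embryonic trunk and limb cells. Of 39 Hox genes listed 29 were tested, 9 of them through MEFs alone. In MEFs 14 of the 29 were higher, a share near the 44.1% of all genes tested, and 7 were higher by 4-fold or more. The 7 were Hoxb2 and 6 genes of the Hoxc cluster on chromosome 15 (Hoxc4, Hoxc5, Hoxc6, Hoxc8, Hoxc9 and Hoxc10). Hoxc6 had 14.5, 17.9 and 24.5 FPKM in MEFs, was listed at 0 in liver and reached 0.114 in colon, while Hoxc9 and Hoxc10 were listed at 0 in all 18 epithelial libraries. The summed level of the 39 genes was higher in colon (239 to 380 FPKM) than in MEFs (147 to 192), and at most 1.44 in liver. Hoxb13, a hindgut gene, made a large share of the colon sum, at 79.3 to 199 FPKM against at most 0.0962 in MEFs. The remaining 15 tested Hox genes did not pass; the median of the 29 was 2.5 against liver and -0.05 against colon.

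Imprinted genes, many of which promote fetal growth, were higher for 14 of 16 tested, 9 by 4-fold or more, and 9 of the 16 passed the filter through MEFs alone. Grb10, an adaptor that restrains insulin signalling, had 87.7 to 104 FPKM in MEFs and at most 1.33 in the epithelia, and Ndn (necdin) had 37.6 to 47 and at most 0.103. Igf2, the fetal growth factor, was low in these cultures: 1.77, 4.87 and 8.17 FPKM in MEFs, with a highest epithelial value of 0.0524. The 7 fetal growth regulators tested of 11 listed were all higher, 5 by 4-fold or more, with 3 of the 7 tested through MEFs alone. Hmga2, a chromatin protein of embryonic and mesenchymal cells, had 116, 130 and 161 FPKM in MEFs, at most 0.0435 in liver and 2.76 to 5.6 in colon. Igf2bp1 and Igf2bp3, RNA binding proteins of fetal tissue, had at least 9.1 and 10.7 FPKM in MEFs and at most 0.626 in the epithelia.

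Markers of other embryonic cells were looked for in the MEF libraries. Of 12 neural genes 4 passed the filter, Tubb3, Nes, Stmn2 and Gap43, all 4 of them through MEFs alone, so that they had to be higher (21.5 to 30.8, 16.4 to 47.9, 6.42 to 12.1 and 15.2 to 22.5 FPKM in MEFs). The neural list summed to 77.1 to 108 FPKM in MEFs. The members that did not pass the filter included Sox2, Sox10, Map2, Gfap, Snap25 and Syn1. Of 12 skeletal muscle genes 2 passed, Des (desmin, 12.3 to 33.1 FPKM) and Tnnt2 (1.23 to 3.15), again both through MEFs alone. Among 10 macrophage genes tested, Lyz2 and Cd68 were higher. The macrophage sum ranged from 27.8 to 49.1 FPKM in 4 MEF libraries and was 139 and 230 in the libraries labelled caMKK6 replicates 1 and 3, where Lyz2 alone was 99.3 and 171 FPKM. Liver held 20.6 to 167 FPKM of the same list and colon at most 3.25. The part of these cells in the fibroblast results was not tested.

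Genes that respond to spreading on a stiff surface were high in MEFs. Of 20 YAP and SRF targets 17 were higher, 15 by 4-fold or more, with a median of 3.29, Nt5e was lower, and 7 of the 20 passed the filter through MEFs alone. Ccn2, a matricellular YAP target, had 443, 650 and 705 FPKM in MEFs, at most 1.04 in liver and 0.472 in colon. Ankrd1, whose promoter stretch holds GGAATG, had 60.5, 120 and 146 FPKM, at most 0.0374 in liver and was listed at 0 in all 9 colon libraries. Against 3 reads a library, mean Ankrd1 was at least 728-fold higher in MEFs than in colon. Ccn1 had 501 to 615 FPKM in MEFs, with 4.4 to 12.6 in liver and 33.8 to 143 in colon. GGAATG stood in 8 of the 17 windows (47.1%) of the 15 listed genes that have one, against 12.5% of windows of genes tested. The 8 genes were Ajuba, Amotl2, Ankrd1, Axl, Ccn1, Crim1, Lats2 and Ptpn14, and no test was made.

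Cell division genes separated MEFs from liver far more than from colon. Of 33 tested 28 were higher by the call, beside 44.1% of all genes tested. Only Rrm2 and Ccne1 were higher by 4-fold or more, a share near the 7.33% of all genes. The medians were 4.08 against liver and 0.65 against colon. Rrm2, a subunit of ribonucleotide reductase, had 120, 135 and 147 FPKM in MEFs, with 0.808 to 3.51 in liver and 8.27 to 22.2 in colon. Ccne1, the cyclin of the G1/S step, had 23.3 to 41.5 FPKM in MEFs, at most 0.447 in liver and 2.08 to 4.24 in colon. Mki67, the usual proliferation marker, fell outside the rule because its signs were opposite. Mki67 had 18, 21.2 and 22.5 FPKM in MEFs, 0.0911, 0.536 and 1.25 in liver, and 45, 62.9 and 87.8 in colon. All MEF libraries lay above all liver libraries and below all colon libraries. Top2a was level with colon, at 35.5 to 42.4 FPKM in MEFs against 25.6 to 57.9.

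Cell cycle inhibitors and p53 targets were higher for 14 of 19 tested, 8 by 4-fold or more, beside 44.1% and 7.33% of all genes. Through MEFs alone, 3 of the 19 passed the filter. After median scaling 13 were higher and 2 lower, beside 5054 and 3832 of all 12368 genes. Cdkn2a, which encodes p16 and ARF and accumulates in cultured embryonic fibroblasts, had 28.8, 46.4 and 76 FPKM in MEFs and was listed at 0 in all 18 epithelial libraries. The FPKM value does not separate its transcripts. Against 3 reads a library, mean Cdkn2a was at least 130-fold higher in MEFs. Phlda3, a p53 target that limits AKT, had 174 to 192 FPKM in MEFs and at most 2.26 in the epithelia. Mdm2, which degrades p53 and is induced by it, had 95.8 to 122 FPKM in MEFs, with 3.86 to 5.75 in liver and 7 to 9.37 in colon. Eda2r was 17.1 to 27.2 FPKM in MEFs and at most 1.64 elsewhere.

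Glycolysis genes were higher for 9 of 16, beside 44.1% of all genes, and 2 of them, Eno1 and Pkm, by 4-fold or more. Their median was 1.2 (0.81 after median scaling), 1.75 against liver and 0.48 against colon. Pkm, the last step of glycolysis, had 422 to 453 FPKM in MEFs, with 0.348 to 2.26 in liver and 58.6 to 106 in colon. Eno1 had 116 to 173 FPKM in MEFs, with 22.5 to 42.5 in liver and 16.7 to 34.6 in colon, a gap of similar size to both. Of 18 sterol synthesis genes tested 6 were higher, 4 lower and none by 4-fold, beside 44.1% higher and 21.7% lower of all genes tested. Their median of 0.29 turned to -0.09 after median scaling. The higher genes included Idi1 (4.64 to 6.96 FPKM in MEFs, at most 4.43 in the epithelia) and the lower ones Dhcr7 (3.12 to 4.38 in MEFs, 9.89 to 28.5 in the epithelia).

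Immediate early genes, which tissue dissociation can induce, did not give 1 direction. Of 25 tested 6 were higher, 1 was lower and 18 did not pass, with 6 higher and 5 lower after median scaling. Of all genes tested, 44.1% were higher and 21.7% lower as deposited, and 5054 and 3832 of the 12368 after median scaling. The medians of the 25 genes were 1.71 against liver and -1.72 against colon. Fos and Fosb, named after their values were seen, were highest in colon. Fos had 6.65, 9.31 and 13.1 FPKM in MEFs, 1.08, 4.48 and 18 in liver, and 314, 517 and 679 in colon. Egr1 had 30.8 to 60.4 FPKM in MEFs, with 3.32 to 38.1 in liver and 111 to 293 in colon. The members that passed included Fosl1 (30 to 38.2 FPKM in MEFs, listed at 0 in liver, 0.788 to 7.74 in colon) and Ier3 (74.9 to 105, at most 1.08, and 8.71 to 20.8). Zfp36, which degrades inflammatory mRNAs, was the lower gene, at 14.5 to 20.5 FPKM in MEFs and 28 to 204 in the epithelia. Glucocorticoid and clock genes gave 3 higher and 5 lower of 16 (2 and 7 after median scaling), none by 4-fold; Tsc22d3 had 3.49 to 4.84 FPKM in MEFs and 6.96 to 34.9 in the epithelia.

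**Figure D3:**
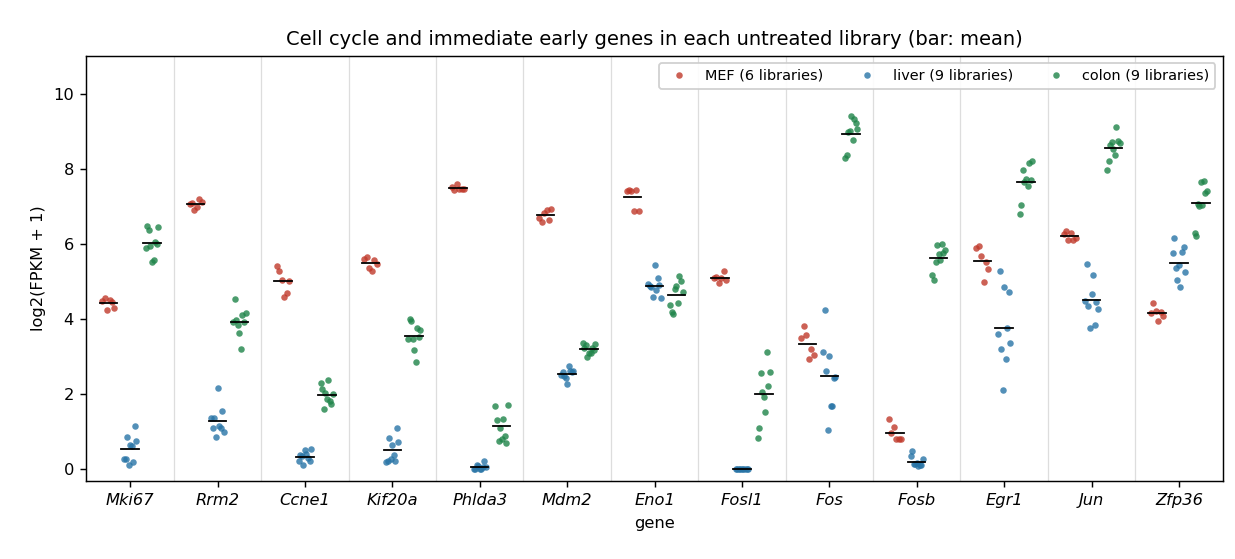
Level of 13 cell cycle, p53, glycolysis and immediate early genes in each untreated library as log2(FPKM + 1), with a bar at each mean. MEF points for Mki67, Egr1 and Jun lie below all colon points, while Rrm2, Ccne1, Phlda3 and Mdm2 lie above all epithelial points; Fos in MEFs (6.65 to 13.1 FPKM) overlaps liver.

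Epithelial junction genes gave the reverse picture. Of 30 tested 18 were lower in MEFs, 12 by 4-fold or more, 1 was higher and 11 did not pass. Of all genes tested 21.7% were lower, 2.84% by 4-fold or more. Of the 30, 19 stayed under 1 FPKM in every MEF library and passed the filter through the epithelia alone. The medians were -1.20 against liver and -4.54 against colon. Cdh1, E-cadherin, had 0, 0.0372 and 0.0894 FPKM in MEFs (lowest, median, highest), 35, 44.6 and 53.2 in liver, and 329, 381 and 450 in colon. The groups were far apart, and the log2 difference was -6.99 ± 0.07 (SE; limma). Cdh1 passed the filter on low values through the epithelia alone and had to be lower, so its levels describe it. Cldn3, a claudin of both tissues, had at most 0.332 FPKM in MEFs, with 39.9 to 69.8 in liver and 234 to 367 in colon. Gjb1, the connexin of hepatocytes, was listed at 0 in all 6 MEF libraries, with 354 to 462 FPKM in liver and 31.5 to 39.6 in colon. F11r, the other gene with a printed promoter, kept 6.32 to 17.9 FPKM in MEFs, against 22.7 to 36.9 in liver and 58 to 93.8 in colon. CACCTG stood in 14 of the 30 windows (46.7%) of the 20 listed junction genes that have one, against 18.2% of windows of genes tested. The 11 genes with a match include Cldn4 and Cldn7, which did not pass, and no test was made. The higher gene was Cldn12, a claudin, at 20.8 to 27.9 FPKM in MEFs and 18 to 26.8 in the epithelia. After median scaling no junction gene was higher and 22 were lower, beside 5054 higher and 3832 lower of all 12368 genes.

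Several epithelial markers were near 0 in liver as well as in MEFs. Epcam had 616 to 730 FPKM in colon but at most 0.243 in liver and 0.161 in MEFs. It passed on average and did not pass against liver alone (limma, adjusted p = 0.21). Esrp1, a splicing regulator of epithelia, was listed at 0 in MEFs, reached 0.0269 in liver and was 64.6 to 85.5 in colon. Cldn7 (at most 0.0614 FPKM in MEFs, 0.0782 in liver, 240 to 308 in colon) did not pass the sign rule. Esrp2, the other ESRP, covered both tissues, at 0.293 to 1.03 FPKM in MEFs, with 16.5 to 22.4 in liver and 17.6 to 22.3 in colon. Polarity and splicing regulators were lower for 14 of 21, 5 by 4-fold or more, beside 21.7% and 2.84% of all genes. Their median was -0.01 against liver and -4.88 against colon. Of the 22 listed, 15 stayed under 1 FPKM in every MEF library.

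Simple keratins were not silent in MEFs. Of 6 tested 3 were lower, Krt8 and Krt18 by 4-fold or more, beside 21.7% and 2.84% of all genes. Krt8 had 1.28, 1.81 and 4.74 FPKM in MEFs, with 43.8 to 73.2 in liver and 913 to 1814 in colon. Krt18, its partner, had 5.55, 8.83 and 19.7 FPKM in MEFs, with 75.8 to 119 in liver and 301 to 427 in colon. Krt19, Krt7 and Krt20 did not pass because MEFs exceeded liver. Krt19 had 18.5 to 43.7 FPKM in MEFs, at most 0.534 in liver and 1015 to 1905 in colon.

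Transcription factors of epithelia and endoderm were lower for 20 of 27 tested, 11 by 4-fold or more, and none was higher. Of all genes tested 21.7% were lower, 2.84% by 4-fold or more. In MEFs 21 of the 27 stayed under 1 FPKM in every library. Those 21 passed the filter through the epithelia alone, which favoured a lower call. Hnf4a, a master regulator of hepatocytes and enterocytes, had at most 0.0337 FPKM in MEFs, 110, 140 and 176 in liver, and 143, 174 and 219 in colon. The epithelia were close to each other and both far above MEFs (log2 difference -7.31 ± 0.07; SE, limma). Hnf4a passed the filter through the epithelia alone and had to be lower, so its levels describe it. Foxa3 and Nr1i2 were listed at 0 in all 6 MEF libraries. Foxa3, a pioneer factor, had 17.6 to 32.7 FPKM in liver and 35 to 74.6 in colon, and Nr1i2, the xenobiotic receptor PXR, 13.7 to 20.3 and 15.5 to 35. Nr1h4, the bile acid receptor FXR, had at most 0.118 FPKM in MEFs, with 30.9 to 54.1 in liver and 22.6 to 48.2 in colon. Elf3 was mainly a colon gene, at 231 to 390 FPKM, with 0.275 to 0.652 in liver and at most 0.0915 in MEFs.

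Among all genes that were lower, ranked by the smaller of both tissue differences, the leading genes included Pigr, Adh1, Mettl7b, Hnf4a, Ugt2b34, Stard10, Sult1a1 and Pck1. Pigr, the receptor that carries polymeric immunoglobulin across epithelia, was listed at 0 in all 6 MEF libraries, with 458, 549 and 666 FPKM in liver and 1456, 1644 and 1974 in colon. Against 3 reads a library, mean Pigr was at least 8298-fold higher in liver and 25421-fold higher in colon. Adh1, an alcohol dehydrogenase, had 0.517 to 2.18 FPKM in MEFs, with 341 to 711 in liver and 288 to 690 in colon. Pck1, a gene of glucose production, had 457 to 1024 FPKM in liver, 52.8 to 100 in colon and at most 0.0237 in MEFs.

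Xenobiotic enzymes and transporters were lower for 24 of 27 tested, 18 of them by 4-fold or more, beside 21.7% and 2.84% of all genes. Their medians were -4.80 against liver and -3.63 against colon. Of the 28 found in the data, 17 stayed under 1 FPKM in every MEF library. Ugt2b34, a glucuronosyltransferase, was listed at 0 in MEFs, with 108 to 160 FPKM in liver and 93.7 to 137 in colon. Sult1a1, a sulfotransferase, had at most 0.216 FPKM in MEFs, with 81.7 to 132 in liver and 221 to 448 in colon. Ugt2b and Sult1 genes belong to families of close copies, and how reads were shared among copies is not given in the sources used here. Lipid absorption and lipoprotein genes were lower for 21 of 26, 6 by 4-fold or more, and 1 was higher. Of the 28 listed, 12 stayed under 1 FPKM in every MEF library. Fabp2, the intestinal fatty acid binding protein, was listed at 0 in MEFs, with 13.3 to 45.3 FPKM in liver and 125 to 209 in colon. Fabp1 was a liver gene at 1284 to 3796 FPKM, with at most 0.766 in colon, and did not pass against colon alone (limma, adjusted p = 0.14).

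Some of these genes were far higher in 1 epithelium and present at lower levels in the other, and the source of the lower levels was not tested. Apob, Ttr, Cps1 and Tat had 477 to 5343 FPKM in liver and 2.06 to 42.7 in colon. Hepatocyte markers summed to 31.5 to 61.3 FPKM in colon, against 0.584 to 1.2 in MEFs and 59227 to 69708 in liver. Colon markers summed to 42.8 to 57.6 FPKM in liver and 23.4 to 51.3 in MEFs, against 8048 to 11935 in colon.

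Respiratory chain genes differed little in size, and the count depended on scale. Of 29 tested 15 were lower in MEFs and 2 higher as deposited, beside 21.7% and 44.1% of all genes tested. None differed by 4-fold, and the median was -0.40. After median scaling 26 were lower and none higher, beside 3832 lower and 5054 higher of all 12368 genes. Sdha, a subunit of complex II, had 57.4 to 65.4 FPKM in MEFs, with 104 to 142 in liver and 94.9 to 126 in colon, with no overlap. Antigen presentation genes were lower for 13 of 16, beside 21.7% of all genes. H2-K1, H2-T23 and H2-D1, 3 of the 16, were lower by 4-fold or more, beside 2.84% of all genes. Of the 18 listed, 8 stayed under 1 FPKM in every MEF library. H2-K1, a classical class I chain, had 6.45, 9.77 and 11.8 FPKM in MEFs, 216, 329 and 366 in liver, and 111, 135 and 196 in colon. H2-D1 had 19.2 to 36 FPKM in MEFs and 113 to 212 in the epithelia. B2m, the shared light chain, did not pass, with 286 to 397 FPKM in MEFs and 225 to 393 in colon. Class I genes are near-identical copies, so their separate values are uncertain.

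**Figure D4:**
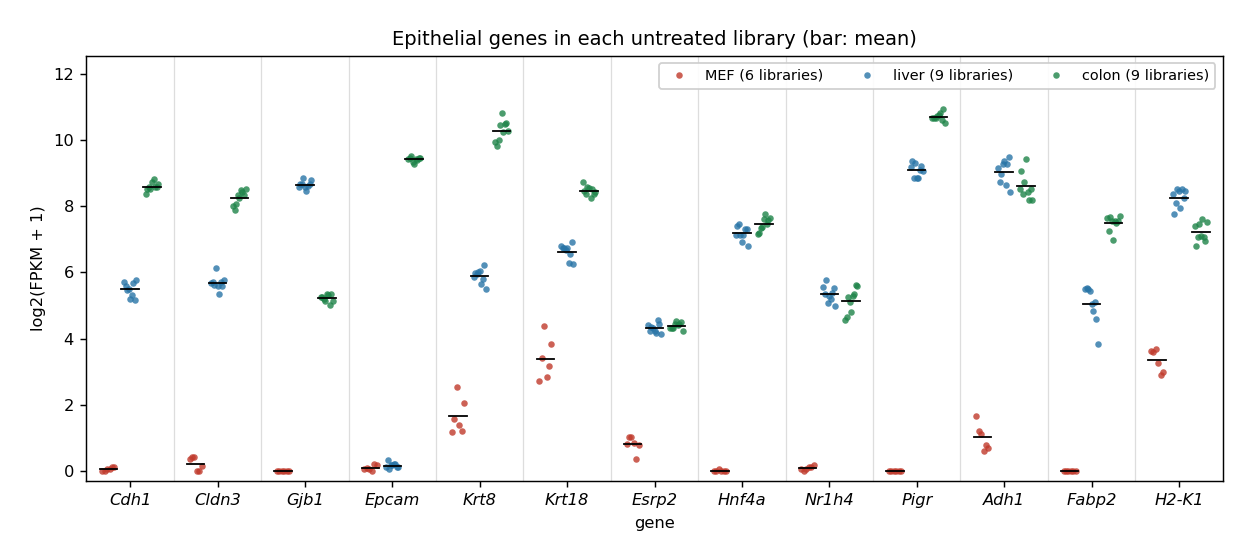
Level of 13 epithelial genes in each untreated library as log2(FPKM + 1), with 6 MEF, 9 liver and 9 colon points a gene and a bar at each mean. MEF points lie below every epithelial point except for Epcam, where liver is as low as MEFs; Krt18 and H2-K1 keep levels of 5.55 to 19.7 and 6.45 to 11.8 FPKM in MEFs.

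**Figure D5:**
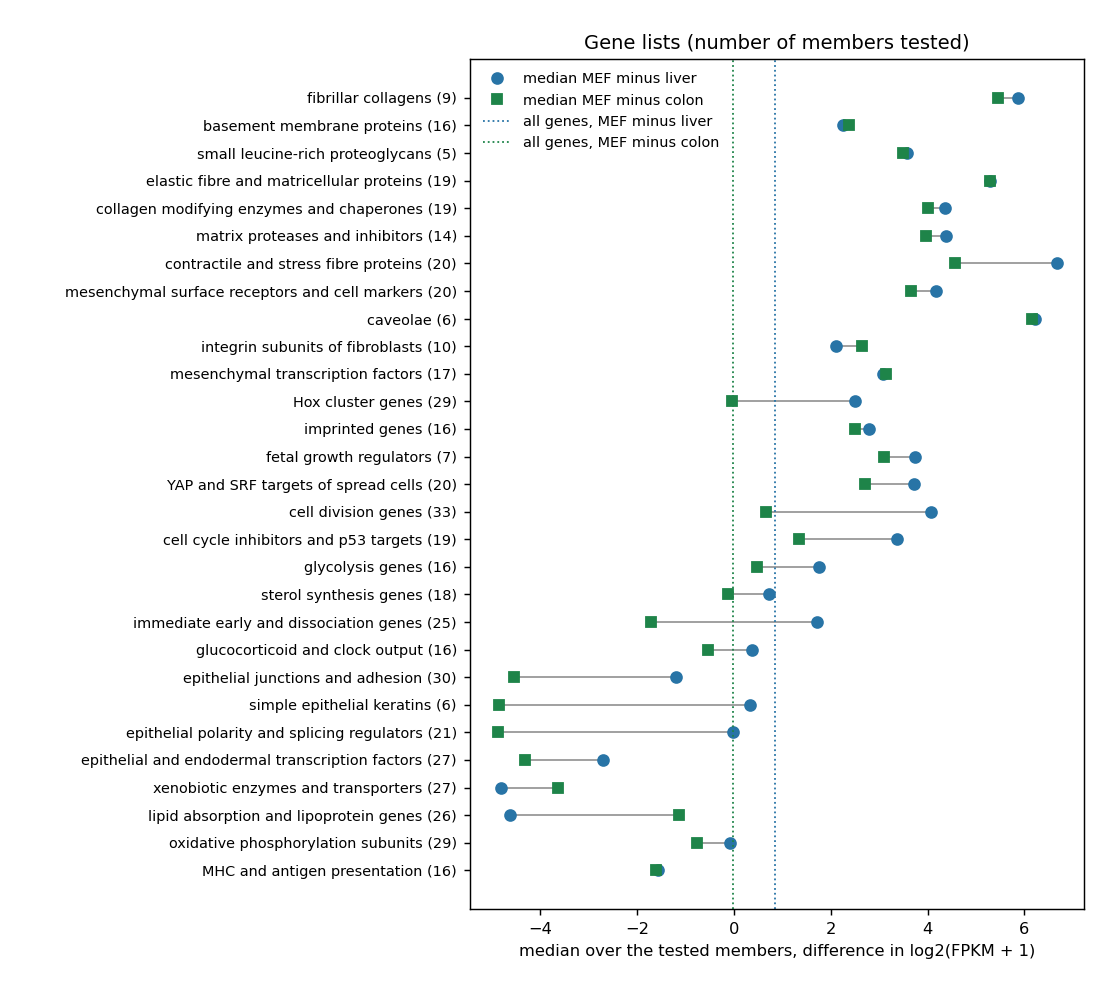
Median difference in log2(FPKM + 1) over the tested members of each of 29 gene lists, MEF minus liver (circles) and MEF minus colon (squares), with dotted lines at the medians of all genes (0.85 and -0.01). Matrix, caveolar and mesenchymal lists lie to the right for both tissues, while Hox, cell division, keratin and immediate early lists differ between the tissues; both markers of a list share the MEF libraries.

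Within the MEFs, some of the fibroblast genes differed between the lines. The difference between MEFs and epithelia was itself compared between caMEK1 and caMKK6, and 217 genes passed (1.75% of those tested), 147 with the larger MEF excess in caMEK1 (1.19%) and 70 in caMKK6 (0.566%). Without the libraries labelled caMKK6 replicates 2 and 3 the count was 239, but that leaves 1 caMKK6 MEF library, which is assumed to vary like the other groups. Mgp, an inhibitor of calcification, had 98.3, 89.6 and 54.7 FPKM in the caMEK1 MEFs and 10.8, 11.9 and 27.1 in those labelled caMKK6 (log2 difference of differences 2.32; limma, adjusted p = 3.2e-05). Col2a1, the cartilage collagen, had 14.4, 20.4 and 12.1 against 1.36, 4.59 and 2.33. Igf2 had 8.17, 6.89 and 7.11 against 1.77, 2.86 and 2.57. In the other direction Igfbp5 had 20.7, 15.5 and 15.1 against 96.8, 96.5 and 34.5, and Cdkn2a 28.8, 35.4 and 42.8 against 76, 50 and 66.6. The groups did not overlap for any of these 5 genes. With voom on recovered reads only 9 genes passed, and with a pseudocount of 0.1 there were 80. The line and the culture it came from cannot be told apart.

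Libraries with doxycycline, which the rule did not use, give the same measure in other samples. Of the 906 genes at least 4-fold higher in untreated MEFs, 760 (83.9%) had all 18 MEF libraries on doxycycline above all 28 sorted libraries, against 16.1% of all genes tested. Of the 351 lower genes 278 (79.2%) had them all below, against 4.73%. Treatment, sorted colour and time differ in those libraries, and no test was made. Acta2 spanned 196 to 2931 FPKM in the MEFs on doxycycline and Col1a1 57.5 to 893, wider than without it, while the epithelia stayed at or below 0.473 for Acta2 and 0.624 for Col1a1. Ccn2 no longer separated, at 24.3 to 623 FPKM in MEFs and up to 48.3 in liver. Hnf4a and Pigr were listed at 0 in all 18 of these MEF libraries, and Cdh1 reached 2.47 FPKM there. Krt18 overlapped, at 24.8 to 274 FPKM in MEFs and 70.9 to 366 in liver.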

How the data were processed

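Gene expression was taken from the authors' deposited table of FPKM values for 70 mouse libraries, 21859 genes and 4 reporter or transgene sequences. Per the submitters' processing notes, reads were trimmed with cutadapt 1.12 and aligned with STAR 2 to mm10; the counting tool and annotation are not given in the sources used here. Values times exon length (GENCODE M21, GRCm38) were whole reads within 0.02 for 100% of values under 1000 reads, which gave depth and, for an alternative, reads per gene. Length was found for 21191 gene IDs.

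The 24 untreated libraries were grouped by their labels into 8 groups of 3 and fitted in 1 model with limma 3.58.1 (lmFit, eBayes with a trend, 16 residual degrees of freedom; R 4.3.3) on log2(FPKM + 1), over 12368 genes with 1 FPKM or more in at least 6 libraries. The mean of the MEF groups minus the mean of the tissue groups was tested with Benjamini-Hochberg adjustment over all genes, two-sided. Fold changes are on the log2(FPKM + 1) scale, which understates low genes. Named genes were 38 sentinels by role, the 10 largest non-overlapping differences each way with 5 FPKM or more on the higher side, up to 4 called members per list, and the 3 largest genotype differences each way; some genes the rule names are not reported here. The members and the 40 lists were chosen with earlier results of these data known, and no set test was made. Lymphocyte markers had no member that passed the filter; erythroid and cartilage lists gave no gene that was higher, and endothelial markers gave 1 higher and 4 lower of 11, neutrophil and mast cell markers 1 higher and 1 lower of 3, and stellate or gut stromal markers 6 higher and 2 lower of 11. The fit was tested on simulated data. Tables were handled with Python 3.11.15, pandas 2.3.3 and numpy 2.4.6. Where a level is listed at 0, lower bounds on folds set the mean of the other side against 3 reads in the shallowest library. They cover counting error only, and single libraries can lie below them. Promoter windows are RefSeq's for GRCm38.p6.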

Additional observations from a re-analysis of the deposited data

Results flagged for a closer look

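Single libraries stood apart from the rest of their tissue in 16 of 329 gene and tissue combinations, where chance alone gives about 1 in 20. In colon, caMKK6 replicate 1 was the highest for Col1a1 (4.89 FPKM, next 1.38), Col3a1 (6.17, next 1.7), Col1a2 (1.92, next 0.545) and Dcn (1.21, next 0.355), all stromal genes. In liver, caMKK6 replicate 3 was the lowest for Snai2 (0.884 FPKM, next 1.6), Nr1i2 (13.7, next 16.8), Uqcrfs1 (84.2, next 118) and Ndufv1 (40.6, next 52.6). Control replicate 2 was the highest in liver for Ier3 (1.08 FPKM, next 0.391), and caMEK1 replicate 2 the highest for Alb (39420, next 33238).

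In MEFs, caMEK1 replicate 1 was the lowest for Cav1 (197 FPKM, next 239), the library labelled caMKK6 replicate 2 the lowest for Ccn2 (443, next 602), and caMKK6 replicate 1 the highest for Peg3 (19.9, next 12.9). In colon, caMEK1 replicate 2 was the lowest for Timp2 (1.45 FPKM, next 3.24) and the highest for Crb3 (44.5, next 38.9), and caMEK1 replicate 3 the lowest for Idi1 (1.57, next 2.74). No call of these genes was lost when a single library was left out.

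Of 170 named genes, 17 had a difference from the epithelia that itself differed between caMEK1 and caMKK6 (limma on the difference of differences, Benjamini-Hochberg adjusted). Given as caMEK1 minus caMKK6 on the log2 scale, the larger excess was in caMEK1 MEFs for Cxcl1 (2.47), Mgp (2.32), Col2a1 (2.21), Mcpt8 (1.53), Gpc3 (1.40), Igf2 (1.33), Nes (0.96) and Ogn (0.68). It was in the MEFs labelled caMKK6 for Igfbp5 (-1.74), Bcl11b (-1.40), Prl3a1 (-1.28), Postn (-1.15), Crabp1 (-0.84), Cdkn2a (-0.83), Hoxc9 (-0.63), Hoxc8 (-0.60) and Hoxc6 (-0.57). Without the libraries labelled caMKK6 replicates 2 and 3, Postn was at -0.95 and did not pass (limma, adjusted p = 0.16), while the other 16 did. That fit has 1 caMKK6 MEF library, which is assumed to vary like the other groups. Prl3a1 belongs to a family of near-identical genes, so its value is uncertain.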

How the results depend on the processing

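Named genes and counts were recomputed under up to 37 alternatives (not every fit gives every result), of which voom on recovered reads and the fit without the frog MEK1 libraries were chosen after the data were seen. Of 6489 recomputed values of single genes, which leave out the counts of genes, 6447 kept direction and side of the threshold, 33 no longer passed, 7 newly passed and 2 reversed. The genes 4-fold or more lower in MEFs went from 351 to 674 with a pseudocount of 0.1 and to 1035 with voom, and the genes lower in MEFs from 2680 to 4425 with voom. The 217 genes that differed between lines became 80 with a pseudocount of 0.1, 499 without the filter, 439 with array weights, 144 without the control mice and 9 with voom. The cause was not tested. Leaving out each library in turn gave 5393 to 5484 genes higher, 2649 to 2680 lower, 902 to 911 higher by 4-fold or more, 347 to 357 lower by 4-fold or more, and 161 to 246 between lines. Bcl11b, which did not pass (0.04), turned to -0.63 with caMEK1 MEFs alone and ranged from -0.022 (without caMKK6 MEF replicate 2) to 0.129 when single libraries were left out. Against each tissue alone, 4745 genes were higher and 1928 lower; Epcam, Esrp1, Fabp1, Stab2, Pecam1, Eng, Dcn and Sox5 did not pass.

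With a replicate block, 5454 genes were higher, 2734 lower, 906 and 351 by 4-fold or more, and 207 differed between lines. Replicate numbers did not pair the samples: same-numbered libraries correlated at -0.28 to 0.348, with a median of -0.00673. Genes under 1 FPKM rest on few reads and were not read for size.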

Other observations

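Most genes with a difference of 4-fold or more belonged to none of the lists, 731 of the 906 higher genes and 288 of the 351 lower ones. They are described here as levels, chosen by size. Ccl2 and Ccl7, chemokines that draw monocytes, had 87.5, 133 and 176 FPKM and 93.8, 120 and 208 FPKM in MEFs, with at most 0.937 and 0.184 FPKM in the 18 epithelial libraries. Csf1, the macrophage growth factor, had 156 to 213 FPKM in MEFs and at most 2.71 in the epithelia. Ptgs2, the inducible cyclooxygenase, had 121, 193 and 228 FPKM against at most 0.0752. Crabp1, a retinoic acid binding protein, was at 294, 359 and 755 FPKM and listed at 0 in all 18 epithelial libraries, and Pdpn (podoplanin) was at 49.8, 116 and 182 FPKM and at most 0.152. Fscn1 (fascin, an actin bundler, 261 to 301 FPKM), Msn (moesin, 274 to 321), Fstl1 (275 to 318) and Basp1 (217 to 265) stayed at or below 5.62 FPKM in the epithelia.

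In the other direction, genes outside the lists included Lsr, a receptor of tricellular junctions, with 0.391 to 1.65 FPKM in MEFs, with 76.6 to 102 in liver and 101 to 146 in colon. Erbb3, a neuregulin receptor, had 0.148 to 0.457 FPKM in MEFs, with 32.5 to 70 in liver and 59.9 to 106 in colon. Stard10, a phospholipid transfer protein, had 0.526 to 1.41 FPKM in MEFs, with 152 to 270 in liver and 198 to 281 in colon. Chchd10, a mitochondrial protein, had 1.25 to 2.2 FPKM in MEFs, with 149 to 238 in liver and 109 to 146 in colon. Aqp8, a water channel, had at most 0.0515 FPKM in MEFs, with 53.2 to 137 in liver and 20.5 to 182 in colon.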
